A study of Homo sapiens with 6 samples.

Results

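Wnt target and intestinal stem cell genes were followed through 3 pools of RNA from HT-29 xenografts. The 10 genes were LGR5, ASCL2, AXIN2, RNF43, ZNRF3, NKD1, SOX9, EPHB2, TCF7 and CD44, and every probe set that the platform annotation paired with one of them was taken. This gave 28 of 54675 probe sets and 8 of the 10 genes. The annotation used here paired no probe set with EPHB2 or TCF7, which were therefore not analysed here.

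HT-29 is an established line of human colorectal adenocarcinoma cells. Tumours were grown in the left and right femoral region of Balb/c (nu/nu) mice, an immunodeficient strain, aged 6 to 8 weeks. The control pool came from xenografts of control animals. The treated pool came from xenografts that received electromagnetic heating for 30 min on day 18 and were taken 4 h later, and the opposite pool from the unheated xenografts on the other side of the treated animals. Whether control animals were handled as for a treatment, and how many animals entered a pool, are not given in the sources used here. Each pool was measured on 2 arrays, labelled as technical replicates, so each SD below is that of 2 arrays of 1 pool. With 1 pool per group, the comparisons describe these pools, no test between conditions was possible, and the spread between animals is unknown.

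Wnt proteins bind Frizzled receptors and LRP co-receptors and keep beta-catenin from the destruction complex, in which APC and AXIN proteins hold it for degradation. Beta-catenin then enters the nucleus and activates target genes with TCF/LEF factors. In the intestine this signal maintains the stem cells at the crypt base, and in most colorectal cancers, HT-29 among them, loss of normal APC function keeps it active. Several of the targets feed back on the pathway: AXIN2 joins the destruction complex, RNF43 and ZNRF3 remove Frizzled receptors from the cell surface, and NKD1 acts on Dishevelled. LGR5 binds R-spondins, which counteract RNF43 and ZNRF3.

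Values are on the log2 scale. A probe set was called detected where a pool mean lay at or above 5, and it was called higher or lower (the size rule) where 3 conditions held. The pool means had to differ by at least 1, which is 2-fold, the pools could not overlap, and the higher pool had to reach 5 on both of its arrays. Pools do not overlap where every array of one lies above every array of the other, over 4 pairs of arrays. Of the 28 probe sets 14 were detected, from 6 genes: LGR5, AXIN2, RNF43, ZNRF3, SOX9 and CD44. The other 14 had pool means from 2.37 to 4.44, and 5 of them had the table's lowest value on all 6 arrays.

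All 5 heat shock genes examined (HSPA6, HSPH1, DNAJB1, BAG3 and HSPB1, a list taken up with earlier results of these data known) were higher in the treated pool than in either other pool. In opposite minus control 0 of the 5 passed the size rule. There 4 of the 5 lay above control without overlap, beside 34% of all genes, with HSPA6 differing by 0.965 and BAG3 by 0.42. Of 10 colon carcinoma epithelium markers 9 were detected. Of human gene markers of other cells, 1 of 7 fibroblast, 0 of 5 endothelial and 1 of 6 measured leukocyte genes were detected. So were 3 of 7 skeletal muscle, 1 of 3 measured red blood cell and 1 of 6 epidermis and adipose genes. Over detected probe sets the 2 arrays of a pool differed by a median of 0.049 to 0.058. Over the 40 detected spike-in probe sets, RNA added in fixed amounts, the median of the single differences was 0.33 in treated minus opposite. The scaling below used the spike-in median of each array instead, so its shift need not equal this value. Scaling each array to a common spike-in median shifted all detected probe sets by a median of -0.19 in treated minus opposite, 0.18 in opposite minus control and -0.01 in treated minus control.

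LGR5, the R-spondin receptor that marks crypt base stem cells, was the 1 gene of the set past the size rule. Its detected probe set, 213880_at, stood at 4.00 and 4.26 on the control arrays, 5.51 and 5.62 on the treated arrays, and 4.19 and 4.29 on the opposite arrays. Both treated arrays lay above all 4 others, which overlapped with each other and lay below the detection level. The treated mean of 5.57 ± 0.076 exceeded the control mean of 4.13 ± 0.182 by 1.44 and the opposite mean of 4.24 ± 0.066 by 1.33 (SD, n = 2 arrays each). Taken against the detection level of 5, this was at least 1.48-fold, a difference of 0.57, in both comparisons. The minimum difference of 1 was thus passed only with control and opposite values below the detection level taken as given. With values below 5 raised to 5, LGR5 no longer passed the size rule in either comparison. The second LGR5 probe set, 210393_at, lay between 2.47 and 2.64 on all arrays and showed no such difference, so the call rests on 1 probe set close to the detection level.

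By the size rule, 1 of 14 detected probe sets was higher in treated minus control, against 0.686% of all 10793 detected probe sets that name 1 gene. In treated minus opposite 1 of 14 was higher, against 0.261% of 10709. In opposite minus control 0 of 13 were higher, against 0.279% of 10749. None of the detected probe sets was lower in any of the 3 comparisons, where 0.158%, 0.0747% and 0.214% of all were. The 1 probe set was that of LGR5, which entered the 14 through its treated pool alone. With values below 5 raised to 5, 0 of the probe sets passed in any comparison, while 0.519% of all were higher in treated minus control and 0.196% in treated minus opposite. No test was applied to these counts.

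**Figure D1:**
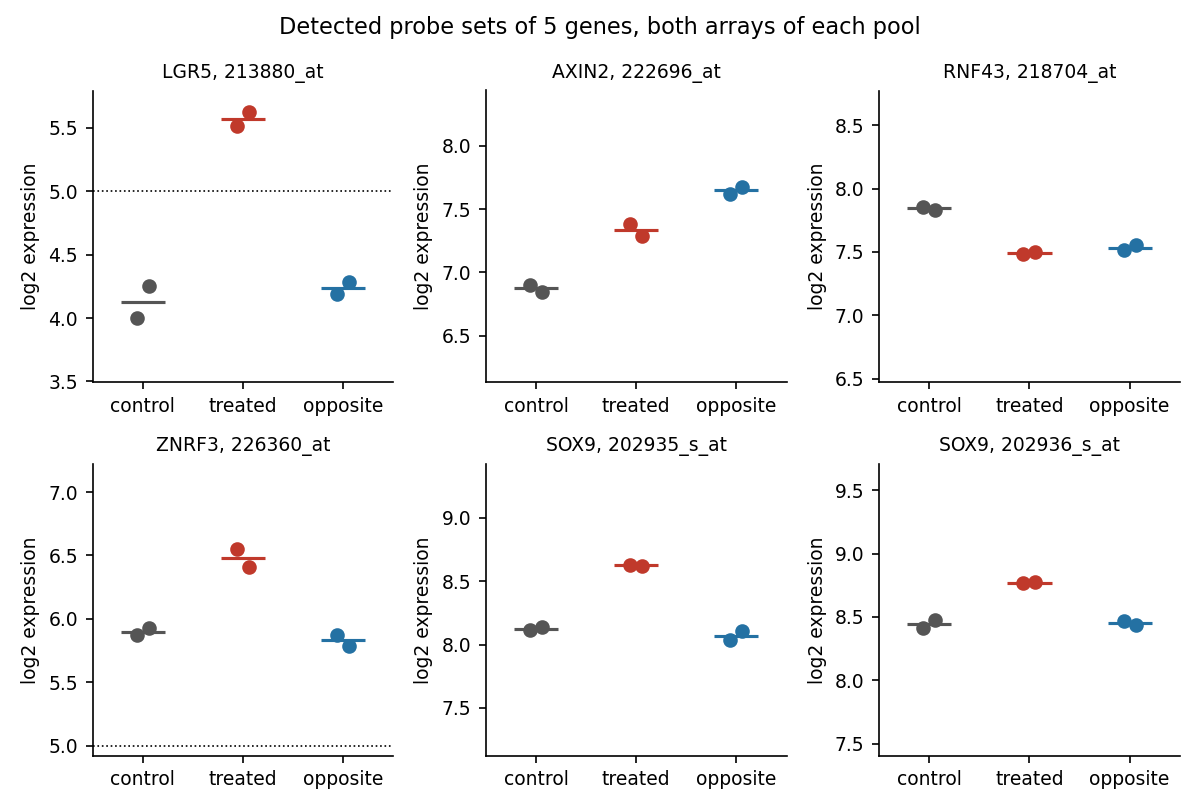
Log2 expression of the 6 detected probe sets of LGR5, AXIN2, RNF43, ZNRF3 and SOX9 in the control, treated and opposite pools. Points are the 2 technical arrays of a pool, bars their mean, the dotted line the detection level of 5, and every panel spans the same range of log2 values; LGR5, ZNRF3 and SOX9 are highest in the treated pool, AXIN2 in the opposite pool and RNF43 in the control pool.

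The ubiquitin ligases RNF43 and ZNRF3, which share the task of removing Frizzled receptors, differed from control in opposite directions in the treated pool. Between opposite and control, RNF43 differed by -0.31, and ZNRF3 by -0.07 with overlapping pools. ZNRF3 (226360_at) stood at 5.87 and 5.92 in the control pool, 6.55 and 6.41 in the treated pool, and 5.88 and 5.79 in the opposite pool. The treated arrays lay above the other 4, and the control and opposite pools overlapped. The difference was 0.58 against control and 0.65 against the opposite pool, below the size rule in both.

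RNF43 (218704_at) stood at 7.86 and 7.83 in the control pool, 7.48 and 7.50 in the treated pool, and 7.52 and 7.55 in the opposite pool. Its 2 control arrays lay above the other 4. The treated pool differed from control by -0.35 and the opposite pool by -0.31, while treated and opposite differed by -0.04. With the spike-in scaling these were -0.37, -0.14 and -0.23. Of all detected probe sets, 17.7% differed by at least as much as RNF43 in treated minus control and 22.2% in opposite minus control, so differences of this size were common. None of these differences passed the size rule.

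RNF43 was 1 of 4 genes of the set with a promoter window in the RefSeq table used here (GRCh38.p14), the others being CD44, EPHB2 and TCF7. Its windows are shown because RNF43 is the feedback gene that stood below control in both pools of the treated animals. The stretches before its annotated starts, 250 bases each, are printed 5′ to 3′ on the transcribed strand. Capitals mark CTTTG or its reverse complement CAAAG, the short core that TCF/LEF sites share. The first lies at chr17:58417535-58417784 and the second at chr17:58402722-58402971, both on the minus strand.
RNF43 first window: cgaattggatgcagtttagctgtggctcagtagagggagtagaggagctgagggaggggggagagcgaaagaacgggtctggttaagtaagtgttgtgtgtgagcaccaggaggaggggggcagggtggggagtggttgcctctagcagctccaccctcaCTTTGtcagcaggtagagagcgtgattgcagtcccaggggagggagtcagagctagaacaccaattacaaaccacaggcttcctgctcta
RNF43 second window: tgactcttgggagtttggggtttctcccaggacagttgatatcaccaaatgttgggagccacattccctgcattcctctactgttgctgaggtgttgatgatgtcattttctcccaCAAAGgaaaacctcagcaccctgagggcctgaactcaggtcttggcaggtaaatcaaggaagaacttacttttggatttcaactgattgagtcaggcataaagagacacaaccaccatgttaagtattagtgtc

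Each RNF43 stretch held the core once, a word present in 42.1% of the corresponding stretches of all 35116 windows. This core was searched after the windows had been seen. The longer words CTTTGAT and CTTTGAA, searched on both strands, were in 0 of the 7 windows of the 4 genes (from 250 bases before to 50 after a start), and in 2.62% and 4.43% of all windows. The heat shock element, 3 units in alternating orientation, also searched on both strands, was in 0 of the 7 and in 0.49% of all. Its starting orientations are reverse complements of each other, so this is a single search. A match describes the letters in the window and does not identify a bound site.

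AXIN2, the feedback scaffold of the destruction complex and a widely used readout of Wnt activity, was highest in the unheated tumours of the treated animals. Its detected probe set, 222696_at, stood at 6.90 and 6.85 in the control pool, 7.38 and 7.29 in the treated pool, and 7.62 and 7.67 in the opposite pool. None of the 3 pools overlapped. The opposite mean of 7.65 ± 0.035 exceeded control by 0.77, or 1.71-fold, and 1.43% of all detected probe sets differed by at least that much in this comparison. The treated pool exceeded control by 0.46 and differed from the opposite pool by -0.31. With this spike-in scaling these were 0.95, 0.44 and -0.50, with the same signs.

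The other AXIN2 probe sets lay below the detection level. Probe set 224176_s_at stood at 3.34 and 3.31, 3.29 and 3.12, and 3.79 and 3.84 in the control, treated and opposite pools, so the opposite arrays were again the highest and the treated mean was not above control. Probe sets 222695_s_at and 224498_x_at stood at 2.37 on every array. NKD1, the other feedback inhibitor, had 3 probe sets, all between 2.37 and 2.53, and its level could not be followed.

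SOX9, a transcription factor of the crypt base and of Paneth cells, was highest in the treated pool by both of its probe sets. Probe set 202935_s_at stood at 8.11 and 8.14 in the control pool, 8.63 and 8.62 in the treated pool, and 8.03 and 8.11 in the opposite pool. Probe set 202936_s_at stood at 8.41 and 8.48, 8.77 and 8.77, and 8.47 and 8.44 in the same order. The treated arrays lay above the other 4 for both. The differences from control were 0.50 and 0.32, and those from the opposite pool 0.55 and 0.32, all below the size rule. With the spike-in scaling the differences from the opposite pool were 0.36 and 0.13. Between opposite and control the probe sets differed by -0.05 and 0.01. The spike-in scaling added the same 0.175 to both in this comparison. The first thus became 0.12, and the second also lay further above control.

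ASCL2, a basic helix-loop-helix factor that controls the stem cell state of the crypt, was not detected. Probe set 229215_at lay between 3.94 and 4.08 on all 6 arrays with overlapping pools, and 207607_at stood at 2.37 throughout.

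CD44, a hyaluronan receptor whose variant forms are Wnt targets in the crypt, had 13 probe sets, of which 8 were detected, with pool means from 5.94 to 10.63. The probe sets did not differ in 1 direction. In treated minus control 2 of the 8 lay above control without overlap, 3 below and 3 overlapped, and the differences ran from -0.16 to 0.45 with a median of -0.02. In treated minus opposite 3 lay above, 2 below and 3 overlapped, from -0.11 to 0.31. Among the probe sets without overlap, the spike-in scaling turned the signs of 204489_s_at and 212063_at in that comparison, to -0.04 and -0.10.

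Probe set 212063_at of CD44 stood at 10.53 and 10.51 in the control pool, 10.66 and 10.60 in the treated pool, and 10.54 and 10.54 in the opposite pool. The treated arrays were above the others by about 0.1. Probe set 217523_at had the largest difference of the detected ones, with 7.74 and 7.87 in the control pool, 8.31 and 8.20 in the treated pool, and 7.89 and 7.99 in the opposite pool. It differed by 0.45 against control and 0.31 against the opposite pool.

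Probe set 204489_s_at followed another order, at 7.46 on both control arrays, 7.35 and 7.36 on the treated arrays, and 7.21 and 7.20 on the opposite arrays. The probe sets may report different transcripts of this alternatively spliced gene, and which ones was not examined. Probe set 1565868_at, below the detection level, stood at 3.02 and 2.93 in the control, 3.90 and 3.92 in the treated, and 3.18 and 3.15 in the opposite pool, so its treated arrays were also the highest.

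**Figure D2:**
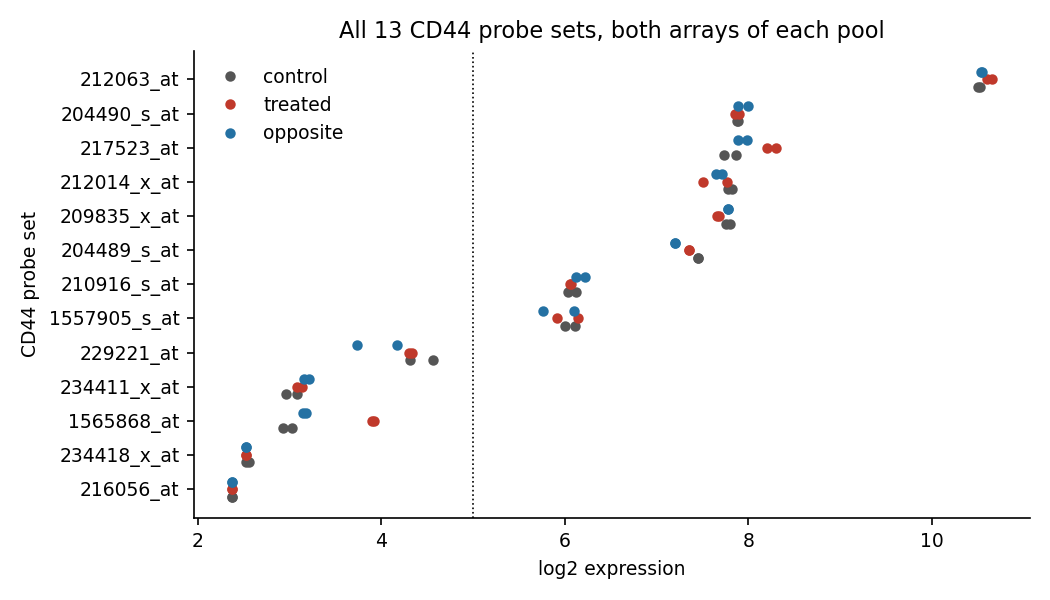
Log2 expression of all 13 CD44 probe sets on the 2 arrays of each pool (grey control, red treated, blue opposite), with the detection level of 5 dotted. The pools lie close together for most probe sets, and 217523_at and 1565868_at show the treated arrays to the right of the others.

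Over all detected probe sets of the 10 genes, the median difference was 0.05 in treated minus control, 0.09 in treated minus opposite and 0.0035 in opposite minus control, beside -0.01, 0.008 and -0.01 for all detected probe sets. With the spike-in scaling the second became -0.10 and the third 0.18. CD44 supplied 8 of the 14 values. With 1 probe set per gene, that with the highest mean, the medians were 0.39, 0.20 and 0.009. No median over all genes was computed in this way to set beside them. LGR5 entered the comparisons with the treated pool through that pool alone, and was not in opposite minus control. In treated minus control the treated arrays lay above without overlap for 7 of 14 probe sets and below for 4, where this held for 35.3% and 39.2% of all. In treated minus opposite the counts were 7 and 4 of 14, beside 37.5% and 34% of all. In opposite minus control they were 3 and 4 of 13, beside 35.1% and 40.4%. No overlap together with a difference of at least 0.5 in either direction was found for 2, 3 and 1 probe sets, beside 7.57%, 6.11% and 7.22% of all. Pools without overlap were thus common among all probe sets.

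**Figure D3:**
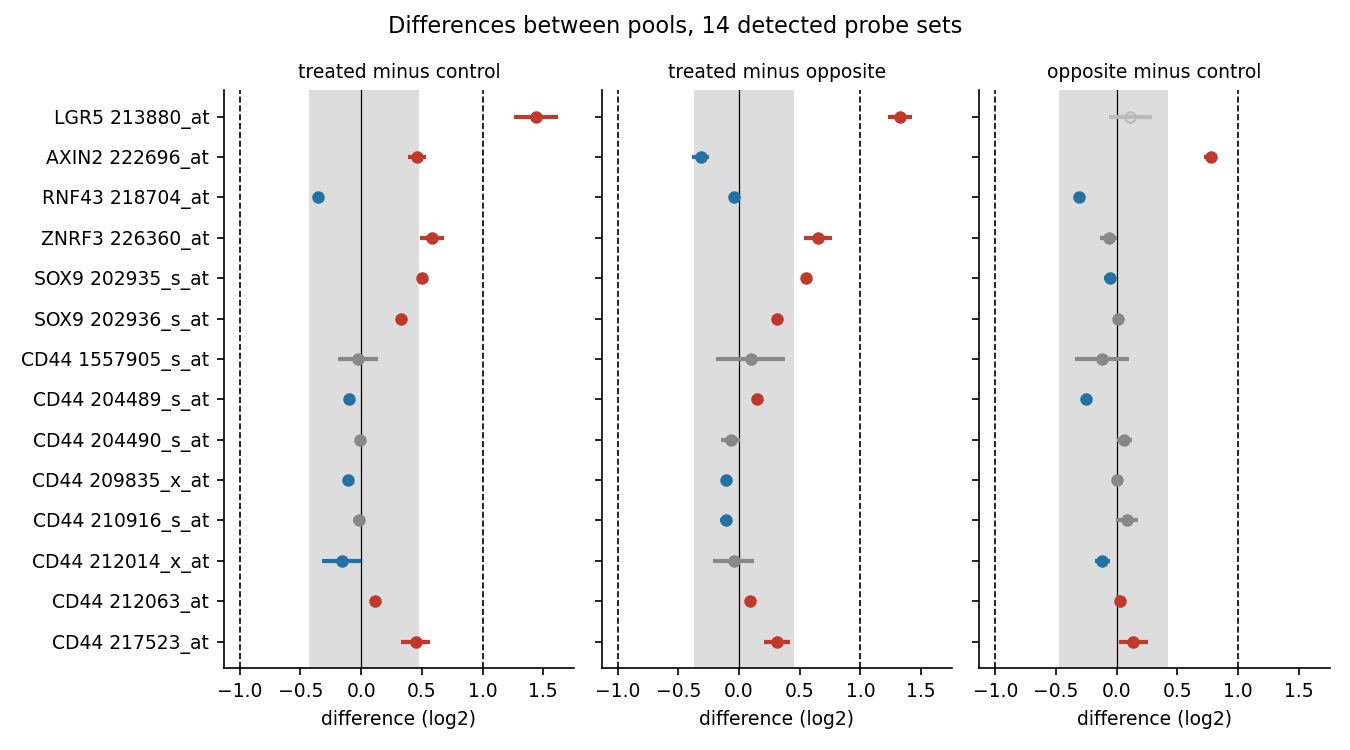
Differences of pool means (log2) for the 14 detected probe sets in 3 comparisons. Points are differences of means, bars the range of the 4 array-to-array differences, red and blue mark pools that do not overlap, grey those that do, and an open circle a probe set not detected in that comparison; grey bands hold the central 90% of all detected probe sets and dashed lines mark a difference of 1, which only LGR5 passes, with control and opposite values below the detection level.

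The rest of the pathway was described through 11 lists of receptors, ligands, destruction complex members, nuclear partners, inhibitors, other targets, other stem cell genes, ephrins, gut factors and differentiation genes, with 1 probe set per gene. Of 57 detected genes 3 were higher in treated minus control and 0 were lower, where 0.625% and 0.0972% of all 7204 detected genes were. Against the opposite pool 0 of 56 passed the size rule in either direction, where 0.28% and 0.0559% of all were higher and lower. In opposite minus control 1 of 58 was higher and 0 were lower, where 0.237% and 0.167% of all genes were. Without overlap, 30 genes lay above and 16 below control in the treated pool (34.7% and 40.5% of all genes), 34 above and 10 below the opposite pool (38.6% and 33.2%), and 24 above and 23 below control in the opposite pool (34% and 42.4%).

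The 3 genes were DKK1, PHLDA1 and TCF4. DKK1, a secreted antagonist of LRP co-receptors, was the 1 detected gene among 13 inhibitors. It stood at 7.59 and 7.53 in the control pool, 8.66 and 8.63 in the treated pool, and 7.95 and 7.96 in the opposite pool, a difference of 1.09 between treated and control. PHLDA1, which marks intestinal stem cells in some settings, stood at 5.69 and 5.72, 7.08 and 7.01, and 6.34 and 6.24 in the same order. For both of these probe sets the opposite pool lay between the others. Another detected PHLDA1 probe set, 225842_at, had means of 5.98, 6.24 and 5.82, so its opposite pool was the lowest and its treated minus control difference was 0.25, while 217997_at differed by 1.55. TCF4, which encodes the E-box factor ITF2 and not the TCF/LEF factor TCF7L2, stood at 4.25 and 4.20 in the control pool, 5.42 and 5.38 in the treated pool, and 5.27 on both opposite arrays. It passed the size rule in both pools of the treated animals only with control values below the detection level taken as given. Against 5 the differences were 0.40 and 0.27, at least 1.32-fold and 1.21-fold, neither of which passed, and its 7 other probe sets all lay below 5. DKK1 and PHLDA1 passed in treated minus control with that floor too.

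Among the 12 detected genes in the list of other Wnt targets, TCF4 included, MYC differed by 0.9995 and JAG1, a Notch ligand, by 0.84 between treated and control, and the median of the list was 0.42. In treated minus opposite the median was 0.11. In the list of other stem cell genes 6 were detected, with a median of 0.29 in treated minus control. In that comparison the cell cycle kinase CDK6 differed by 0.54 and the ion transporter SLC12A2 by 0.34. The other SLC12A2 probe set differed by -0.05. The stem cell markers OLFM4 and SMOC2 stood at 2.37 in all pools.

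Receptors, ligands and core components had no gene past the size rule. All differences here and in the next paragraph are treated minus control unless stated. The Frizzled receptor FZD6 differed by 0.45, RYK by 0.24 and the co-receptor LRP6 by 0.06, with a median of 0.05 over 6 detected genes. LGR4, the R-spondin receptor related to LGR5, stood at 7.18 and 7.20 in the control pool, 7.39 and 7.36 in the treated pool, and 7.67 and 7.77 in the opposite pool. Its highest pool was thus the opposite one, as for AXIN2. FZD6 was also highest in the opposite pool, 0.67 above control. Of 3 detected genes of ligands and their secretion, WNT11 differed by 0.61, WNT10A by 0.11 and the Wnt carrier WLS by -0.08. Beta-catenin (CTNNB1) differed by 0.43, the kinase CSNK1A1 by 0.24 and DVL2 by -0.34, and the 10 detected destruction complex genes had a median of -0.0070. Another CTNNB1 probe set, 223679_at, differed by -0.14. Other detected CSNK1A1 probe sets differed by -0.05 to 0.60. Of the nuclear partners, TCF7L2 differed by -0.20, CTNNBIP1 by -0.11 and CHD8 by -0.10 (median -0.09 over 6). The other 6 TCF7L2 probe sets differed by -0.11 to 0.12. With an array left out in turn, CTNNBIP1 ranged from -0.17 to -0.051, CHD8 from -0.17 to -0.028, WNT10A from 0.050 to 0.17 and LRP6 from 0.018 to 0.11. The DVL2 treated mean lay below the detection level, and against 5 its difference was -0.066. In treated minus opposite FZD6 differed by -0.22, RYK by 0.13, LRP6 by -0.03 and LGR4 by -0.35. There WNT11 differed by 0.24, WNT10A by 0.05, WLS by -0.02, and CTNNB1 and CSNK1A1 by 0.07 each. Other detected CSNK1A1 probe sets differed by -0.72 to 0.28 in that comparison. TCF7L2 differed by -0.14, CTNNBIP1 by -0.07 and CHD8 by 0.06, and DVL2 was detected in neither pool. The other 6 TCF7L2 probe sets differed by -0.06 to 0.35 in treated minus opposite, so its probe sets did not share a direction. Where these pools did not overlap, spike-in scaling turned the signs of RYK, CTNNB1 and CSNK1A1.

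Among ephrins and EPHB receptors, which sort cells along the crypt, the ligand EFNB2 differed by 0.66, EPHB6 by -0.16 and EPHB4 by -0.13. The EPHB6 pools overlapped, and with an array left out its difference ran from -0.34 to 0.014 and that of EPHB4 from -0.20 to -0.062. The gut and crypt factors SOX4, KLF5 and GATA6 differed by 0.43, 0.21 and -0.14. SOX4 had other detected probe sets that differed by -0.21, -0.38 and 0.05. The other KLF5 probe set, 209212_s_at, differed by -0.22, so neither gene's probe sets shared a direction in treated minus control. Of the differentiation genes, the goblet cell peptide TFF3 differed by -0.64, CDKN1A by 0.28 and the keratin KRT20 by 0.27, with a median of 0.04 over 6 detected genes. The treated arrays of TFF3 stood at 4.95 and 4.49, below the detection level. Against 5 its difference was -0.36. With an array left out, the difference of -0.64 ran from -0.88 without the first treated array to -0.41 without the second. In treated minus opposite EFNB2 differed by 0.11, EPHB6 by 0.12 and EPHB4 by 0.36. The other EFNB2 probe set, 202669_s_at, differed by 0.44 in that comparison. There SOX4 differed by 0.44, KLF5 by 0.17, GATA6 by 0.23, CDKN1A by 0.12 and KRT20 by -0.01, and TFF3 was detected in neither pool. The other detected SOX4 probe sets differed by 0.345, 0.49 and 0.42 in treated minus opposite, and the other KLF5 probe set by 0.02. Where the pools of this comparison did not overlap, spike-in scaling turned the signs of EFNB2 202668_at, KLF5 and CDKN1A. The EPHB6 pools overlapped here too, so its sign was not followed.

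**Figure D4:**
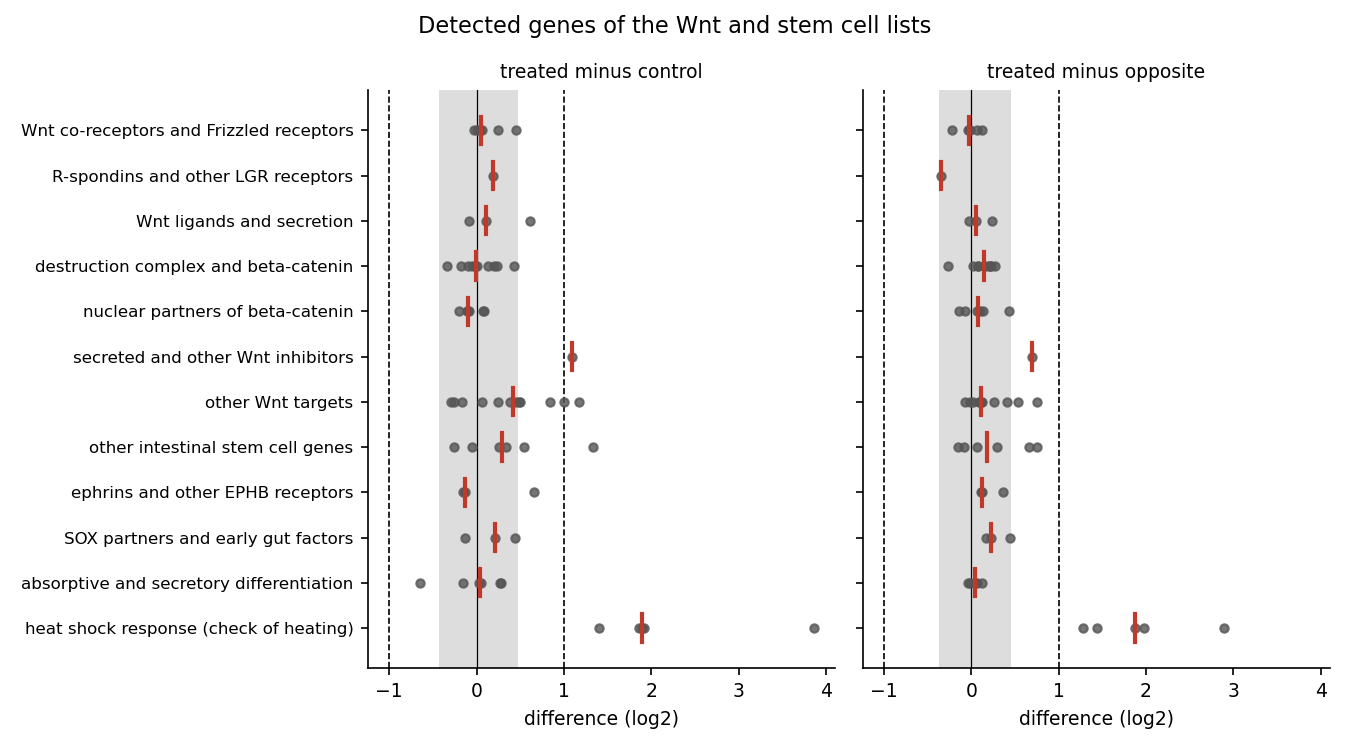
Differences of pool means (log2) of the detected genes in 11 pathway lists and the heat shock list, for treated minus control (left) and treated minus opposite (right). Points are genes, red bars list medians, grey bands the central 90% of all detected probe sets and dashed lines a difference of 1; the 5 heat shock genes lie beyond 1 in both panels, and the pathway genes past 1 in the left panel are DKK1, PHLDA1 and TCF4.

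The 5 genes whose 6 array values, each centred on the gene's own mean, lay nearest to those of LGR5 were HSPB1, SUCNR1, CHORDC1, ZFAND2A and SERPINH1, among 7266 genes at or above 5 in a pool. Their Euclidean distances on the log2 scale were 0.234, 0.366, 0.373, 0.424 and 0.433. The nearest, the small heat shock protein HSPB1, stood at 9.09 and 9.08 in the control, 10.48 and 10.49 in the treated, and 9.23 and 9.17 in the opposite pool. The 4 control and opposite values of LGR5, like those of SUCNR1, lay below the detection level, so these distances rest in part on values not above it. The 6 arrays hold only 3 pools, so the distances mainly compare 3 levels.

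Human gene markers of other cells also differed between the pools. The host cells of these xenografts are mouse cells, while these probe sets name human genes. Whether their signal came from the tumour cells or from mouse RNA was not tested, so the sums do not measure host cell content. The summed linear level of the 7 fibroblast and matrix markers was 146 to 148 on the control, 223 to 224 on the treated and 201 to 205 on the opposite arrays, with COL1A1 the 1 detected gene and FAP at the lowest value of the table throughout. That of the 7 skeletal muscle markers was 106 to 107, 201 to 213 and 141 to 141 in the same order. ACTA1 had means of 3.10, 5.27 and 4.11, and MYL11 of 5.05, 6.65 and 5.89. TNNT3, also detected, had means of 5.44, 5.49 and 5.44. MYL1, MYH2, MYH4 and CKM lay between 2.37 and 2.73 on all arrays. The sum of the 6 leukocyte markers was 3066 to 3175, 3631 to 3680 and 3413 to 3503, with LYZ the 1 detected gene (11.62 and 11.57, 11.82 and 11.83, and 11.72 and 11.76). PTPRC stood at 2.42 to 2.43 and CD14, CSF1R and CD3E at the lowest value. The sum of the 5 endothelial markers was 27.1 to 27.1, 27.1 to 27.2 and 27.7 to 27.7, with CDH5 at the lowest value. The sum of the 3 measured red blood cell markers was 72.8 to 84.2, 2382 to 2423 and 144 to 149, with HBE1, the embryonic epsilon globin, the 1 detected gene. HBE1 stood at 6.16 and 5.92, 11.24 and 11.21, and 7.04 and 7.09, while HBB, the adult beta globin, lay between 2.86 and 3.05 and ALAS2 at 2.37 on all arrays. That of the 6 epidermis and adipose markers was 403 to 416, 389 to 415 and 454 to 455, with PLIN1 at the lowest value. The epithelial sum was 32487 to 32542, 35178 to 35445 and 35506 to 35553. The quality control probe set of the ACTB 5′ end differed by 1.12 in treated minus control, -0.16 in treated minus opposite and 1.27 in opposite minus control, and that of the 3′ end by 0.23, 0.08 and 0.15. The GAPDH 5′ end differed by -0.46, -0.45 and -0.01, and its 3′ end by -0.03, -0.03 and 0.0005. The part of these differences in the values of LGR5, AXIN2, SOX9, ZNRF3 and CD44 was not tested. In such bulk RNA, fewer cells with a transcript and less of it per cell cannot be told apart.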

How the data were processed

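The series matrix holds log2 values that the authors deposited for 54675 probe sets on 6 arrays. GCRMA, which corrects background, normalizes quantiles across arrays and summarises probe sets, is credited to the submitters' processing notes, without a version. The log2 scale was read from the values. RNA was extracted from dissected frozen sections and pooled per group, per the labels. Arrays have no depth, and their number limits the precision.

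The platform annotation paired 41097 probe sets with 1 gene (41043 matched to current symbols by Entrez identifier), 1801 with several and 11777 with none. Only the first were used. The members and lists were chosen with earlier results of these data known. All members were named, together with the list genes past the size rule, the 3 largest differences from control per list and the 5 genes nearest to LGR5.

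Pool means and differences were computed in Python 3.11.15 with numpy 2.4.6 and pandas 2.3.3. limma 3.58.1 (R 4.3.3), run as an alternative on all probe sets with Benjamini-Hochberg adjustment, compares pools against array error only. The rules were tested on simulated data. Alternatives covered detection level, minimum difference, averaging, scaling, choice of probe set, each array left out and, chosen after seeing the data, values below 5 raised to 5. Same-numbered arrays did not deviate together (correlations of 0.025, 0.00040 and 0.0043), so the numbers pair nothing.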

Additional observations from a re-analysis of the deposited data

How the results depend on the processing

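The count past the size rule stayed at 1, 1 and 0 (treated minus control, treated minus opposite, opposite minus control) under most settings. Values below 5 raised to 5, an alternative chosen after seeing the data, gave 0, 0 and 0. A detection level of 6 gave 0, 0 and 0, and a minimum difference of 0.5 gave 2, 3 and 1. Limma against array error with the minimum difference gave 1, 1 and 0, and with the technical replicate block 0, 0 and 0. Leaving out an array in turn gave 1 to 1, 1 to 1 and 0 to 0.

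In treated minus control, 7 probe sets lay above and 4 below without overlap. Those below were 1 without _x_at and _s_at probe sets, 1 with 1 probe set per gene and 2 by limma; with the replicate block 0 lay above and 0 below. In treated minus opposite (7 and 4), spike-in scaling gave 4 and 8, both choices of probe set 4 and 2, and no detection level 7 below. Limma gave 0 below, and with the replicate block 0 and 0. In opposite minus control (3 and 4), spike-in scaling gave 10 and 2, no detection level 7 above, both choices of probe set 1 below, limma 1 and 2, and with the replicate block 0 and 1. Leaving out an array gave 7 to 9 above and 4 to 6 below, 7 to 9 and 4 to 6, and 4 to 5 and 5 to 6, in the order of the comparisons. The paired fit rests on numbers that do not pair the arrays, and fewer degrees of freedom remain in it. Limma called 17.4%, 11.2% and 15.5% of all detected probe sets, and 2.48%, 0.532% and 1.34% with the block.

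The median of 0.05 in treated minus control was -0.014 at a level of 4, -0.0080 at 6, 0 with no level, 0.45 without _x_at and _s_at probe sets and 0.39 with 1 probe set per gene (0.032 to 0.11 with an array left out). That of 0.09 in treated minus opposite was 0 with no level, -0.10 with spike-in scaling, and 0.20 with either choice of probe set (0.024 to 0.13). That of 0.0035 in opposite minus control was -0.019 at a level of 4, -0.018 with quantile normalization, 0.18 with spike-in scaling and 0.022 without _x_at and _s_at probe sets (-0.021 to 0.0030). The cause was not tested.

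Turned signs were followed only where the pools did not overlap, so signs of overlapping pools that turned are not listed. Spike-in scaling turned the sign in treated minus opposite for CD44 204489_s_at (-0.040) and 212063_at (-0.10), CTNNB1 (-0.12), CDKN1A (-0.067), EFNB2 202668_at (-0.081), RYK (-0.061), CSNK1A1 (-0.12), KLF5 (-0.016) and TCF4 (-0.066). In opposite minus control it did so for SOX9 202935_s_at (0.12), CD44 212014_x_at (0.056), CHD8 (0.017), TCF7L2 (0.11), WLS (0.11) and CDK6 (0.052). Quantile normalization turned KRT20 in treated minus opposite (0.048) and CD44 212063_at in opposite minus control (-0.00717). No sign turned for LGR5, AXIN2, RNF43 or ZNRF3 where the pools did not overlap. With 1 pool per group, these settings say nothing of the spread between animals.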
